A study of Mus musculus with 8 samples.

Results

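The comparison set the 3 libraries of attached neural tube protrusions against the 4 libraries of open neural tube, 7 of the 8 libraries of the series, as their morphology labels name them. The library of the separated protrusion entered no test and is described beside the results. All tissue came from embryos of the FVB strain at embryonic day 8.5, carried by diabetic dams, so both groups had developed under maternal diabetes, and no embryos of non-diabetic dams were compared here. Open neural tube was tissue of normal morphology in sections just anterior to closure site 1, the place where the neural folds first meet, and protrusions were outgrowths cut from the open neural plate. All samples were dissected by laser from cryosections. From each, 7 to 12 ng of total RNA went into a SAGE library, which counts short tags from the 3′ part of transcripts. Open neural tubes are numbered 1 to 4 and attached protrusions 1 to 3 in the order of their titles. The axial level at which a protrusion arose is not given in the labels, so position along the body axis and the protrusion itself cannot be told apart. Whether each library is a different embryo is not stated, and the separated protrusion and attached protrusion 1 have titles with a common stem. The p-values therefore measure only the spread between these libraries.

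The neural plate closes into the neural tube from closure site 1 forward and backward, while the embryo still grows at its tail end. There the primitive streak and the axial progenitors beside it feed new cells into the spinal cord and into the presomitic mesoderm, under Wnt and FGF signals that hold cells in a progenitor state. Retinoic acid made by the somites opposes FGF and favours neural differentiation, and the genes of the neural plate further forward, such as Sox1, Zic1 and Dbx1, mark cells that have taken a neural fate.

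Transcripts of 26608 genes were listed, 8912 of them at 0 in the 7 libraries, and 11466 had enough reads to be tested. Totals ran from 5668054 to 16655583 reads per library, so that 3 reads, taken as the floor of detection, stood for 0.180 to 0.529 CPM, that is, tag counts scaled to the size of the library. More genes were seen in attached protrusions. At an equal depth of 5668054 reads, open neural tubes had tags of 10522.5 ± 696 genes (SD, n = 4) and attached protrusions of 14849.7 ± 585 (SD, n = 3). The exact permutation test over 35 splits gave a 2-sided p of 0.0571, the smallest possible here. Of 3283 genes averaging 5 to 20 CPM, each open library had no tag of 4.81% to 18.7% and each attached library of 0.0914% to 0.366%. Of 1895 genes averaging at least 100 CPM, no library lacked more than 0.0528%. The part that this gap plays in rises of genes near 0 in open neural tube was not tested. Open neural tube 3 stood apart from its group: Hand1 and Pax1, regulators of mesoderm and sclerotome, were at 69.6 and 246 CPM there and at no more than 0 and 13.7 CPM in the other 3. Counts of every pair of libraries of a group differed by more than counting noise (chi-square per degree of freedom 30.2 to 141), so no library was taken for a second deposit of another. This does not show that the libraries came from separate embryos.

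Genes that rose in attached protrusions included regulators and signals of the primitive streak (T, Cdx2, Nodal), of the presomitic mesoderm (Tbx6, Dll1, Dll3) and the posterior Hox genes Hoxb8 and Hoxb9. Some of them, such as Nodal, Tbx6 and Hoxb8, were at or near 0 in open neural tube, and others, such as Dll1, were not. Genes that fell included the neural plate factors Dbx1, Zic1 and Sox1, 3 FGF receptors and the secreted Wnt inhibitors Sfrp1 and Sfrp5. In edgeR's quasi-likelihood test 172 genes, 1.5% of those tested, had an adjusted p under 0.05 (Benjamini-Hochberg). Of these, 87 rose (0.759%) and 85 fell (0.741%). Rises had a median log2 fold change of 2.80 and falls of −1.59, beside 0.09 over all genes tested. Changes of more than 8-fold made up 36 of the rises and 22 of the falls. In all 172 genes the values of the groups did not overlap, which was also so for 24.8% of all genes tested, 17.9% with attached protrusions higher and 6.94% lower. Among the rises, 28 had an open neural tube mean under 5 CPM, 4 were at 0 in every open library, and 26 had passed the filter on low counts through the attached libraries alone. Among the falls, 16 had an attached protrusion mean under 5 CPM, and 11 had passed this filter through the open libraries alone. Genes with a mean of at least 100 CPM made up 42 of the 87 rises and 48 of the 85 falls.

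**Figure D1:**
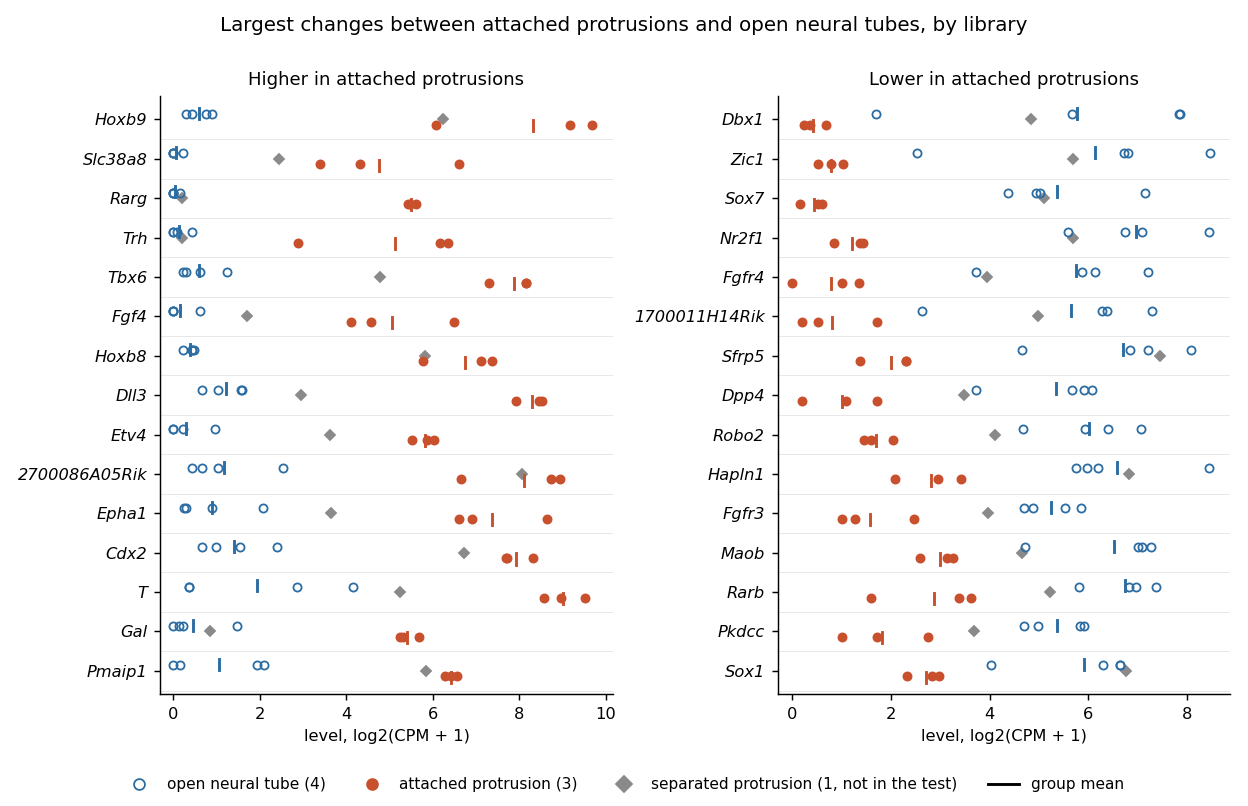
Levels as log2(CPM + 1) of the genes that changed most, 15 in each direction, at a mean log2 CPM of at least 4 and past the threshold, with 1 point per library (open circles, open neural tube, n = 4; filled circles, attached protrusion, n = 3; grey diamonds, the separated protrusion) and short bars at group means. The groups do not overlap in any of these 30 genes, and the grey diamonds lie between the groups, inside one of them or, for Sox1, beyond the open libraries.

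How many genes passed depended on single libraries. The counts were 8 higher and 2 lower without open neural tube 1, 52 and 31 without open neural tube 2, 115 and 96 without open neural tube 3, and 16 and 7 without open neural tube 4. Leaving out attached protrusion 1, 2 or 3 gave 15 and 2, 19 and 6, or 9 and 1. Of the 172 genes, 5 passed in all 7 of these fits, the progenitor and mesoderm regulators Cdx2, Tbx6 and Dll3, the posterior Hox gene Hoxb8 and the retinoic acid receptor Rarg, and the largest adjusted p of any of the others was 0.222. Without the composition-based scaling of libraries the split was 128 higher and 83 lower, and the median of all genes lay at 0.19 in place of 0.09. In bulk tissue, fewer cells of a type and less RNA per cell cannot be told apart, which holds for every level below.

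Of 30 listed primitive streak and axial progenitor genes 22 were tested, and 9 rose and 0 fell, beside the 0.759% and 0.741% of all genes. They had a median log2 fold change of 5.08, or 4.61 with genes at 0 in open neural tube set at their bound. Of the 22, 14 had passed the filter through the attached libraries alone, beside 1924 of all 11466 tested, so that the filter had set their direction. Neither the median nor the count of 9 rises and 0 falls is therefore support for a rise of the list. The same shares of all genes, 0.759% and 0.741%, stand beside the counts of every list below. Cdx2, a caudal homeobox gene that maintains axial progenitors, was at 0.987, 1.94, 4.32 and 0.597 CPM in open neural tubes 1 to 4 and at 207, 319.9 and 211 CPM in attached protrusions 1 to 3. All attached libraries were high and the highest open library stayed under 5 CPM, a log2 fold change of 6.78 ± 0.62 (± SE here and below; adjusted p = 0.00406). Its relative Cdx1 stood at 2.27, 21.5, 9.19 and 3.34 CPM in open neural tube and 211, 91.9 and 173 CPM in attached protrusions, a rise of 4.11 ± 0.73 on the log2 scale (adjusted p = 0.037). T, the Brachyury gene of streak, node and notochord, was at 0.296, 16.9, 0.3 and 6.33 CPM against 737, 498 and 379 CPM. Open neural tubes 2 and 4 were above the other 2 but far below every attached protrusion (log2 fold change 6.54 ± 1.20, adjusted p = 0.0396).

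Nodal, a TGF-beta family ligand that sets up the streak, had 0 reads in all 4 open libraries and 32.8, 32.6 and 25.1 CPM in attached protrusions, at least 88.6-fold higher with 3 reads per open library as the floor (adjusted p = 0.0163), and it was the 1 of 10 tested genes of Nodal and Activin signalling that passed. Mixl1, a homeobox gene of nascent mesoderm and endoderm, was also at 0 in all 4 and at 29.1, 57.7 and 11.2 CPM in attached protrusions, at least 95.8-fold higher (adjusted p = 0.0252). The attached libraries differed more among themselves for Mixl1 than for Nodal, with attached protrusion 2 the highest. Wnt8a, a streak Wnt ligand, had 1 read in the open libraries together and stood at 9.61, 53.5 and 3.73 CPM in attached protrusions, again highest in attached protrusion 2 (adjusted p = 0.0328). The ratio of pooled levels was 1085-fold, with a 95% interval of 194 to 42901; such intervals cover counting error only. Grsf1, an RNA-binding protein gene listed with the streak, was expressed throughout, at 231, 133, 161 and 118 CPM in open neural tube and 885, 2607 and 607 CPM in attached protrusions, and rose by 2.93 ± 0.45 on the log2 scale (adjusted p = 0.0253). Gbx2, a homeobox gene of hindbrain and of the posterior neural plate, was even across open neural tubes at 35.5, 46.4, 36.9 and 54.6 CPM and higher in each attached protrusion at 276, 971 and 390.0 CPM (log2 fold change 3.51 ± 0.38, adjusted p = 0.00976). Over the fits with 1 library left out, Cdx2 passed in 7 and Gbx2 in 6 of 7 fits, Nodal in 3, T, Mixl1 and Grsf1 in 2, Cdx1 in 1 and Wnt8a in 0, the largest adjusted p being 0.209 for Wnt8a.

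Of 20 listed genes of the presomitic mesoderm, the unsegmented tissue that buds off somites, 16 were tested. Of these, 3 rose and 0 fell, beside 0.759% and 0.741% of all genes. The list's median log2 fold change was 2.84, and 8 of the 16 had passed the filter through the attached libraries alone, with their direction set by it. Tbx6, the T-box factor that turns progenitors into paraxial mesoderm, was at 1.38, 0.529, 0.18 and 0.239 CPM in open neural tubes and 158, 285 and 284 CPM in attached protrusions (log2 fold change 8.59 ± 0.64, adjusted p = 0.00117). Dll3, a Notch ligand of the segmentation clock, was at 0.592, 1.06, 1.98 and 2.03 CPM against 369, 241 and 349 CPM, and its adjusted p of 0.000565 was the smallest of all genes (log2 fold change 7.69 ± 0.46). In both genes every open library lay at 2.03 CPM or below and every attached library at 158 CPM or above. Dll1, the ligand that activates Notch in this tissue and in neurogenesis, was present in open neural tube at 79.9, 28.6, 33.5 and 12.7 CPM and rose to 323, 342 and 429.6 CPM (log2 fold change 3.13 ± 0.53, adjusted p = 0.0338). Dll1 and Dll3 were the 2 of 18 tested genes of the Notch pathway that rose, none fell, and the list's median log2 fold change was 0.98. Of the 18, 5 had passed the filter through the attached libraries alone. Tbx6 and Dll3 passed in 7 of 7 fits with a library left out and Dll1 in 1, with an adjusted p of up to 0.109.

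Lfng, Msgn1 and Rspo3, other genes of the segmenting mesoderm, had a higher value in each attached library than in any open one without passing. That was also so for 17.9% of all genes tested, and these genes were named after their values were seen. Lfng, a modifier of Notch that cycles in the clock, was at 0, 3.7, 0.18 and 11.8 CPM in open neural tube and 67.1, 61.7 and 67.9 CPM in attached protrusions (adjusted p = 0.141). Msgn1, a presomitic master regulator, was at 0 in all open libraries and at 2.44, 9.36 and 1.92 CPM in attached protrusions (adjusted p = 0.0816). The filter had therefore set its direction. Rspo3, a secreted enhancer of Wnt signals, was at 0, 0.706, 15.6 and 0 CPM against 265, 194 and 197 CPM (adjusted p = 0.0816), with open neural tube 3 above the other open libraries. Of 16 tested genes of the next stage, somite and mesenchyme, 0 passed in edgeR, with a median of −0.97, while 4 had an unadjusted p under 0.05, 3 passed in DESeq2 and 0 in limma-voom. Of the 16, 4 had passed the filter through the open libraries alone. Twist1, a mesenchymal and cranial mesoderm factor, was at 15, 50.5, 316 and 113 CPM in open neural tube and 5.02, 24.5 and 25.2 CPM in attached protrusions, so that the groups overlapped (adjusted p = 0.155). Among 7 tested genes of lateral plate and cardiac mesoderm 0 passed, with a median of 0.10, and 0 had an unadjusted p under 0.05 or passed in DESeq2 or limma-voom.

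Among Hox genes, whose order along the chromosome mirrors their order along the body axis, 2 of 4 tested posterior and 0 of 14 tested anterior members passed, and the difference between these counts was not tested. Of the 24 posterior ones (groups 6 to 13) 8 had no read in any of the 7 libraries and 4 were tested. All 4 of these passed the filter through the attached libraries alone, so their direction was fixed by the filter. Hoxb8 was at 0.395, 0.176, 0.36 and 0.358 CPM in open neural tube and 138, 54.2 and 164 CPM in attached protrusions (log2 fold change 8.34 ± 0.57, adjusted p = 0.000775). Hoxb9 was at 0.691, 0.882, 0.24 and 0.358 CPM against 572, 66.7 and 819 CPM (log2 fold change 9.86 ± 0.98, adjusted p = 0.00642). Both were lowest in attached protrusion 2 among the attached libraries, and still far above every open library. Hoxc8 repeated this order at 125, 2.01 and 119 CPM in attached protrusions, where attached protrusion 2 fell inside the open range of 0.691, 1.23, 2.1 and 0.119 CPM (adjusted p = 0.0556). Hoxb8 passed in all 7 fits with a library left out and Hoxb9 in 6, and with limma-voom's sample weights Hoxb8 missed the threshold at an adjusted p of 0.0518. Hoxb9 missed it in both limma-voom fits, with and without sample weights, at an adjusted p of up to 0.25.

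Of 14 tested anterior Hox genes (groups 1 to 5) 0 passed in edgeR, with a median of 0.88, while 6 had an unadjusted p under 0.05 and 2 passed in DESeq2 and in limma-voom. Hoxc4 was at 2.67, 0.176, 11.6 and 8.24 CPM in open neural tube and 142, 10.9 and 299.9 CPM in attached protrusions, once more lowest in attached protrusion 2 (adjusted p = 0.0816). Hoxa2, a hindbrain gene, lay the other way, at 218, 153, 152 and 263 CPM against 84.9, 29.9 and 111 CPM (adjusted p = 0.123). Each attached library was below each open one, as in 6.94% of all genes tested. A pair of noncoding transcripts from these clusters rose. 2700086A05Rik, a noncoding RNA gene of the HoxA cluster, was at 0.592, 1.06, 4.86 and 0.358 CPM in open neural tube and 424, 99.7 and 493 CPM in attached protrusions (log2 fold change 7.41 ± 0.97, adjusted p = 0.0163). 5730457N03Rik, listed today as an antisense transcript of Evx1, was at 0.296, 0.176, 0.06 and 0 CPM against 54.8, 10.8 and 40.6 CPM (log2 fold change 7.92 ± 1.04, adjusted p = 0.0163). Strand use in the tag counts is not stated, so reads of such RNAs and of their sense partners cannot be told apart. Either call was kept in 3 of 7 fits with a library left out, with an adjusted p of up to 0.111.

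Of 13 tested FGF ligands and receptors 2 rose and 3 fell, beside 0.759% and 0.741% of all genes. The list's median was 0.55. Of the 13, 5 had passed the filter through the attached libraries alone and 2 through the open ones alone. Both rises were ligands and all 3 falls were receptors. Fgf4 and Fgf17 had passed the filter through the attached libraries alone, and Fgfr3 and Fgfr4 through the open ones alone. The filter therefore bears on the direction of these genes, and the split is only a description. Fgf4, a streak ligand, had 3 reads in the 4 open libraries together and stood at 16.2, 89.1 and 22.8 CPM in attached protrusions (adjusted p = 0.0309, ratio of pooled levels 673-fold, with a 95% interval of 229.9 to 3269). Fgf17, a ligand of the Fgf8 group, had 3 reads in open neural tube and stood at 27.1, 5.07 and 21.8 CPM in attached protrusions (adjusted p = 0.0489, ratio 218-fold, with a 95% interval of 74.1 to 1061). Fgf8 itself, the main ligand of the tail end, was at 0, 0, 0.3 and 0 CPM against 17.5, 6.56 and 19.2 CPM and missed the threshold at an adjusted p of 0.0654. The ligands differed in which protrusion was highest: attached protrusion 2 had the most Fgf4 and the least Fgf17 and Fgf8.

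Fgfr2, a receptor, was at 391, 262, 167 and 300.1 CPM in open neural tube and 9.03, 42.9 and 17.8 CPM in attached protrusions and fell by 3.73 ± 0.52 on the log2 scale (adjusted p = 0.0177). Fgfr3, which marks the ventricular layer of the neural tube, was at 45.3, 57.2, 24.9 and 28.7 CPM against 1, 1.4 and 4.57 CPM and fell by 4.13 ± 0.69 (adjusted p = 0.0338). Fgfr4, a receptor of paraxial mesoderm and early neural tissue, was at 69.9, 148, 12.2 and 57.9 CPM against 1, 0 and 1.56 CPM and fell by 6.47 ± 1.23 (adjusted p = 0.0445). In all 3, each attached library was lower than each open library. Fgfr1, the receptor that streak mesoderm needs, was even across open neural tubes at 236, 245, 236 and 229 CPM and spread from 269 to 862 CPM in attached protrusions (log2 fold change 0.97 ± 0.31, adjusted p = 0.124). The lowest open values of Fgfr2, Fgfr3 and Fgfr4 were those of open neural tube 3. Of the 3 receptors and 2 ligands, Fgfr2 passed in 3 of 7 fits with a library left out, Fgf4 in 2, Fgfr3 and Fgfr4 in 1 and Fgf17 in 0, with adjusted p of up to 0.202 for Fgf4.

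Of 20 tested genes that respond to FGF and ERK, 2 rose and 0 fell, and 16 had a log2 fold change above 0, beside 54.0% of all genes. Their median was 2.10, and 12 had no overlap between the groups, all with attached protrusions higher, beside 17.9% of all genes. Of the 20, 6 had passed the filter through the attached libraries alone, which set their direction. Etv4, an ETS factor induced by FGF, was at 0, 0, 0.18 and 0.955 CPM in open neural tube and 57.8, 64.7 and 45.1 CPM in attached protrusions (log2 fold change 7.46 ± 1.04, adjusted p = 0.0177). Ier2, an immediate early gene, was at 45.9, 63.3, 61.4 and 45.5 CPM against 216, 188 and 169.8 CPM (log2 fold change 1.73 ± 0.22, adjusted p = 0.0163). The 3 attached libraries lay close together in both genes. Etv5, the close relative of Etv4, was at 23.8, 47.5, 12.7 and 114 CPM in open neural tube and 387, 413 and 427 CPM in attached protrusions and just missed the threshold (adjusted p = 0.0581). Il17rd, a membrane inhibitor of FGF signalling that FGF induces, was at 7.11, 1.59, 10.4 and 112 CPM against 573, 321 and 556 CPM, with open neural tube 4 far above the other open libraries (adjusted p = 0.11). Etv4 and Ier2 each passed in 3 of 7 fits with a library left out, with adjusted p of up to 0.0829 and 0.0648.

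**Figure D2:**
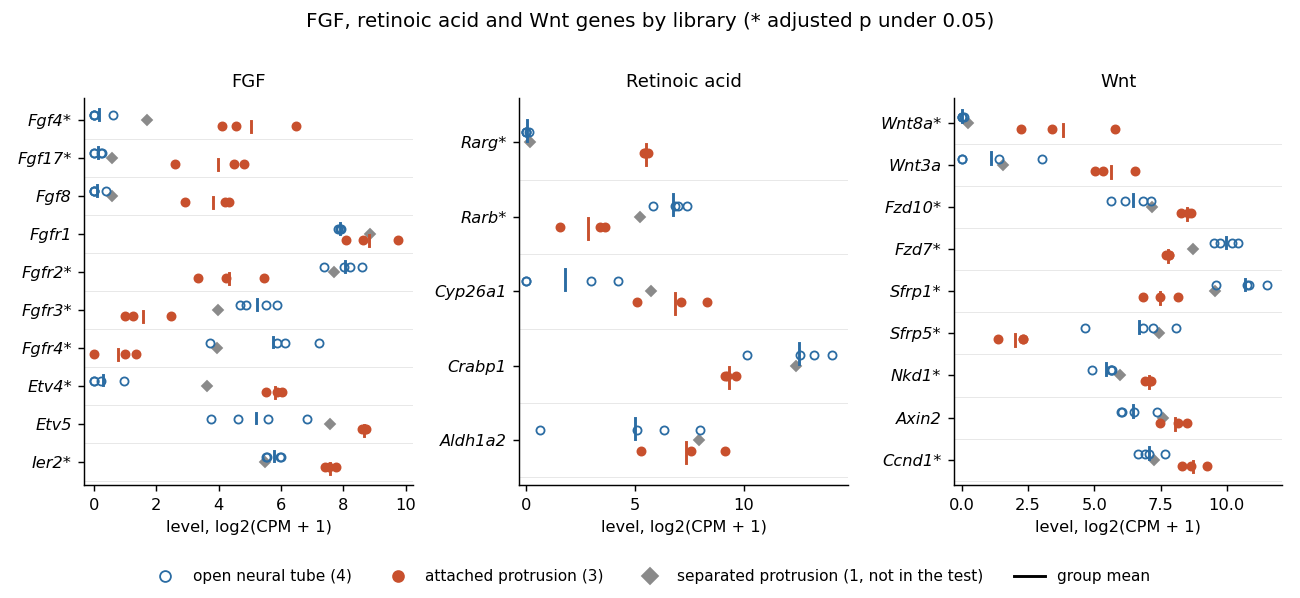
Levels as log2(CPM + 1) of FGF, retinoic acid and Wnt genes with 1 point per library (open circles, open neural tube, n = 4; filled circles, attached protrusion, n = 3; grey diamonds, the separated protrusion), bars at group means, and asterisks on genes with an adjusted p under 0.05. Ligands and targets such as Fgf4, Etv4 and Wnt8a lie to the right in attached protrusions, while Fgfr2, Fgfr3, Fgfr4, Rarb, Sfrp1 and Sfrp5 lie to the left.

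In the retinoic acid pathway 15 of 20 listed genes were tested, with a median of 0.96. Of these, 1 rose and 1 fell, beside 0.759% and 0.741% of all genes. Both were nuclear receptors of retinoic acid. Of the 15, 5 had passed the filter through the attached libraries alone. Promoters of 2 genes of the pathway are shown because each holds the direct repeat to which retinoic acid receptors bind, in a strict form (GTTCA, a gap of 6 bases of any kind, GTTCA, on either strand), and because Cyp26a1 lay above and Rarb below open neural tube in every attached library. Capitals mark the repeat in 300 bases from 250 before to 50 after the RefSeq start, 5′ to 3′ along the gene, from GRCm38.p6 (the deposited counts were made on mm9). The Rarb window is chr14:16575427-16575726 on the minus strand, with the repeat at −52 to −37 from the start of the gene on the same strand as the gene. The Cyp26a1 window is chr19:37697558-37697857 on the plus strand, with the repeat at −32 to −17 on the opposite strand.
Rarb: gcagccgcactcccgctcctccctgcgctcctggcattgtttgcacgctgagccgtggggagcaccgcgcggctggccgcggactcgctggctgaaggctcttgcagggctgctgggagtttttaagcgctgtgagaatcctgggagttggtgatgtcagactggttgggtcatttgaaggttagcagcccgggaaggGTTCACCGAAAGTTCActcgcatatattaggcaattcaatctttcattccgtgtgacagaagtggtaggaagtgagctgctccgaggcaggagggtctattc
Cyp26a1: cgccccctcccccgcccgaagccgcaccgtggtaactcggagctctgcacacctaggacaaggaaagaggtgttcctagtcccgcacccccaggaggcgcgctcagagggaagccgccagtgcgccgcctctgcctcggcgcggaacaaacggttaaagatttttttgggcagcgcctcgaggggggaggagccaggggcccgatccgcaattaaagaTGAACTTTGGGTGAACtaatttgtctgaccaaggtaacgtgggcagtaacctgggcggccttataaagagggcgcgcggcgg
The repeat was found in 25 of 32851 promoters in the RefSeq table, 0.0761%, belonging to 24 of 27025 genes, and a match is only a match of letters.

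Rarg, the receptor of mesenchyme and tail bud, had 2 reads in the open libraries together and stood at 43.7, 48.2 and 41.8 CPM in attached protrusions, with little spread (adjusted p = 0.00406, ratio of pooled levels 919.7-fold, with a 95% interval of 254 to 7603). Rarb, a receptor gene that retinoic acid is known to induce, was at 112, 166, 55.5 and 125 CPM in open neural tube and 2.01, 9.45 and 11.3 CPM in attached protrusions and fell by 4.01 ± 0.62 on the log2 scale (adjusted p = 0.0252). Rarg passed in all 7 fits with a library left out and Rarb in 1, with an adjusted p of up to 0.0907. Cyp26a1, the enzyme that breaks down retinoic acid in the tail bud, was at 0, 7.06, 18 and 0 CPM against 139, 33.1 and 316 CPM, each attached library above each open one (adjusted p = 0.136). Crabp1, a binding protein of retinoic acid in the neural plate and crest, was at 9479.5, 6114, 1129.7 and 16888 CPM in open neural tube and 602, 555 and 779 CPM in attached protrusions, each attached library below each open one (adjusted p = 0.0528). Over all genes tested, the groups lay apart with attached protrusions higher in 17.9% and lower in 6.94%. Aldh1a2, the enzyme that makes retinoic acid in mesoderm, varied as much within as between groups, at 33.4, 80.1, 248 and 0.597 CPM against 37.7, 562 and 190.0 CPM (adjusted p = 0.695).

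Of 24 tested target and feedback genes of Wnt/beta-catenin signalling 4 rose and 0 fell, beside 0.759% and 0.741% of all genes. The list's median was 1.26. Of the 24, 7 had a log2 fold change below 0, and 7 had passed the filter through the attached libraries alone. The 4 were T and Cdx1, described above, Nkd1 and Ccnd1. Nkd1, a feedback inhibitor induced by Wnt, was at 50.4, 48.2, 29.1 and 48 CPM in open neural tube and 136, 139 and 119 CPM in attached protrusions (log2 fold change 1.49 ± 0.25, adjusted p = 0.0338). Ccnd1, the G1 cyclin D1, was at 98.5, 133, 118 and 204 CPM against 607, 402 and 317 CPM (log2 fold change 1.59 ± 0.31, adjusted p = 0.0491). Axin2, the most widely used Wnt reporter gene, was at 164, 62.8, 65.4 and 89.1 CPM in open neural tube and 288, 363 and 178 CPM in attached protrusions, and did not pass (adjusted p = 0.0816). Each attached library was above each open one, as in 17.9% of all genes tested. Of 8 tested Wnt ligands 1 rose, Wnt8a, and none fell, with a median of 3.10, or 2.67 with genes at 0 in open neural tube at their bound, and 5 of the 8 had passed the filter through the attached libraries alone. Wnt3a, the ligand that sustains axial progenitors, was at 1.68, 7.06, 0 and 0 CPM against 31.5, 91.1 and 39.3 CPM (adjusted p = 0.125).

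Among Wnt receptors, co-receptors and secreted inhibitors 1 of 18 tested rose and 3 fell, beside 0.759% and 0.741% of all genes. The list's median was −0.09. Of the 18, 4 had passed the filter through the attached libraries alone and 2 through the open ones alone. Fzd10, a Frizzled receptor of streak and dorsal neural tube, was at 114, 140.4, 48.5 and 70.2 CPM in open neural tube and 401, 372 and 305 CPM in attached protrusions (log2 fold change 1.87 ± 0.33, adjusted p = 0.037). Fzd7, a Frizzled of the neural plate, was at 1159, 862, 735 and 1371 CPM against 223, 208 and 222 CPM and fell by 2.34 ± 0.26 (adjusted p = 0.00976), with little spread among attached protrusions. The secreted inhibitor Sfrp1 was at 1833, 1724, 762 and 2947 CPM against 178, 114 and 282 CPM and fell by 3.32 ± 0.51 (adjusted p = 0.0252). Its relative Sfrp5 was at 148, 270.5, 24.3 and 114 CPM in open neural tube and 1.58, 3.94 and 3.97 CPM in attached protrusions and fell by 5.53 ± 0.81 (adjusted p = 0.0223). Open neural tube 3 was the lowest open library for Fzd7, Sfrp1 and Sfrp5 and still lay above each attached library. Fzd7 passed in 5 of 7 fits with a library left out, Sfrp5 in 2, Nkd1, Fzd10 and Sfrp1 in 1 and Ccnd1 in 0, with an adjusted p of up to 0.139 for Ccnd1.

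The 2 largest falls past the threshold were those of Dbx1 and Zic1, transcription factors of the patterned neural plate, followed by Sox7, described with the cell type markers, and Nr2f1. Each of these genes had passed the filter through the open libraries alone, which bears on its direction. Dbx1, a homeobox gene of interneuron progenitors in the middle of the neural tube, was at 231, 49.9, 2.22 and 228 CPM in open neural tube and 0.287, 0.175 and 0.601 CPM in attached protrusions and fell by 8.59 ± 1.67 on the log2 scale (adjusted p = 0.0476). Zic1, a zinc finger factor of the dorsal neural tube, was at 352, 105, 4.74 and 112 CPM against 0.43, 1.05 and 0.721 CPM and fell by 7.66 ± 1.40 (adjusted p = 0.039). In both genes open neural tube 3 was the lowest open library by far, while the attached libraries stayed at about 1 CPM or below. Zic2 did not pass and was at 26, 36.3, 13.6 and 28.8 CPM against 28.4, 64.7 and 47.1 CPM (log2 fold change 0.73 ± 0.40, adjusted p = 0.406). Dbx1 was the 1 of 16 tested dorsoventral patterning genes that passed, and the list's median was −2.83, with 6 of the 16 having passed the filter through the open libraries alone. Its summed level overlapped between the groups, at 256 to 957 CPM in open neural tube and 287 to 778 CPM in attached protrusions. Pax6, a factor of the intermediate and ventral neural tube, was at 45.2, 60.9, 4.92 and 40.8 CPM in open neural tube and 1.29, 0.612 and 7.21 CPM in attached protrusions, where open neural tube 3 overlapped attached protrusion 3 (adjusted p = 0.101).

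Of the general neural progenitor genes, 21 were tested, and 2 fell and 0 rose, with a median of −0.05, close to that of all genes. Sox1, the earliest marker of committed neural plate, was at 99.3, 78, 15.3 and 99.6 CPM in open neural tube and 4.01, 6.12 and 6.85 CPM in attached protrusions and fell by 3.78 ± 0.65 (adjusted p = 0.035). Sox11, a factor of neural progenitors on the way to neurons, was at 1821, 2232, 2746 and 2608 CPM against 846, 1027 and 784 CPM and fell by 1.51 ± 0.19 (adjusted p = 0.0156). Sox2, which neural plate and axial progenitors share, overlapped between the groups at 549.8, 287, 30.9 and 418 CPM and 255, 158 and 415 CPM, with open neural tube 3 the lowest of all 7 (log2 fold change −0.29 ± 0.74, adjusted p = 0.912). Of 15 tested genes of brain regions 1, Gbx2, rose and 2 fell, beside 0.759% and 0.741% of all genes. The list's median was −2.51. Of the 15, 2 had passed the filter through the attached libraries alone and 2, Nr2f1 among them, through the open ones. Nr2f1, an orphan nuclear receptor, fell and was at 136, 47.5, 348 and 107 CPM against 1.58, 0.787 and 1.68 CPM (log2 fold change −7.01 ± 0.85, adjusted p = 0.0136). Meis1, a Hox cofactor, fell as well and was at 69.7, 131, 162 and 77 CPM against 7.89, 13.3 and 29.4 CPM (log2 fold change −2.79 ± 0.53, adjusted p = 0.0446). Nr2f1 and Meis1 were highest in open neural tube 3, the library with mesoderm transcripts, where Sox1 and Sox2 were the lowest of the open libraries. Irx2, a homeobox gene of hindbrain and midbrain, was at 65.8, 54.9, 8.71 and 29.8 CPM against 2.44, 4.64 and 4.21 CPM and missed the threshold (adjusted p = 0.0528).

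Among 12 tested neural crest genes 1 fell and 0 rose, 8.33% beside the 0.741% of all genes that fell, with a median of −1.45. Of the 12, 3 had passed the filter through the open libraries alone and 1 through the attached ones, which bears on their direction. The share is that of 1 gene. Ednrb, the endothelin receptor of crest cells, was at 19.1, 10.2, 8.65 and 11.3 CPM in open neural tube and 0.143, 0.0875 and 0.24 CPM in attached protrusions and fell by 6.29 ± 1.13 (adjusted p = 0.037). Pax3, a factor of the dorsal neural tube, crest and somites, was at 56.6, 112, 7.75 and 34.7 CPM against 2.58, 1.75 and 6.97 CPM (adjusted p = 0.0751). Each attached library was below each open one, as in 6.94% of all genes tested. Of 9 tested genes of early neuronal differentiation 0 passed in edgeR, with a median of 0.54, while 1 had an unadjusted p under 0.05, 1 passed in DESeq2 and 0 in limma-voom. Of the 9, 3 had passed the filter through the attached libraries alone. The Hedgehog activator Gli2 was at 275, 319, 284 and 324 CPM in open neural tube and 174, 141 and 135 CPM in attached protrusions and fell by 1.09 ± 0.19 (adjusted p = 0.0345), the only 1 of 14 tested Hedgehog genes to pass. The BMP modulator Twsg1 was at 608, 728, 891 and 678 CPM against 344, 317 and 376 CPM (log2 fold change −1.16 ± 0.20, adjusted p = 0.0338), the only 1 of 18 tested BMP genes. With 1 library left out, Sox11 passed in 4 of 7 fits, Nr2f1 in 3, Ednrb in 2, Dbx1, Zic1, Sox1, Gli2 and Twsg1 in 1 and Meis1 in 0, with an adjusted p of up to 0.181 for Dbx1. Dbx1 and Zic1 also missed the threshold without the filter on low counts, with limma-voom, with its sample weights and with the separated protrusion added, at adjusted p of up to 0.507 for Dbx1 and 0.489 for Zic1.

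Surface molecules that steer cells changed in both directions. Of 40 tested ephrins, Eph receptors, semaphorins and other guidance genes 3 rose and 2 fell, beside 0.759% and 0.741% of all genes. The list's median was −0.15. Of the 40, 6 had passed the filter through the attached libraries alone and 5 through the open ones alone. Epha1, an ephrin receptor expressed in the streak, was at 0.197, 0.882, 3.24 and 0.239 CPM in open neural tube and 119, 395 and 96.8 CPM in attached protrusions (log2 fold change 7.16 ± 0.95, adjusted p = 0.0163). Sema6a, a membrane-bound semaphorin, was at 12.3, 24.7, 51.2 and 28.3 CPM against 141, 373 and 207 CPM (log2 fold change 2.90 ± 0.47, adjusted p = 0.0338). Epha5, another Eph receptor, had 1 read in open neural tube and stood at 19.4, 3.06 and 26.9 CPM in attached protrusions (adjusted p = 0.0464). All 3 rises differed among the attached libraries, Epha1 and Sema6a being highest and Epha5 lowest in attached protrusion 2. Robo2, a Slit receptor of axons and neural progenitors, fell and was at 59.8, 134, 83.2 and 24.6 CPM against 1.72, 2.01 and 3.12 CPM (log2 fold change −5.11 ± 0.64, adjusted p = 0.0157). The ligand Efna5 fell too, at 71.3, 54.5, 70.2 and 94.7 CPM against 18.2, 26.9 and 21.2 CPM (log2 fold change −1.83 ± 0.30, adjusted p = 0.0338). Cxcr7, a scavenger receptor for the chemokine Cxcl12, was at 208, 107, 41.6 and 91.1 CPM in open neural tube and 15.9, 19.6 and 15.9 CPM in attached protrusions and fell by 2.81 ± 0.51 (adjusted p = 0.0392).

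Genes on adhesion, cell shape and polarity passed only singly. Ptk7, a receptor of planar cell polarity whose loss leaves the neural tube open, was at 18.8, 8.29, 26.2 and 28.3 CPM in open neural tube and 115, 131 and 214 CPM in attached protrusions (log2 fold change 2.80 ± 0.45, adjusted p = 0.0309), the 1 of 23 tested polarity genes. Zyx, the focal adhesion protein zyxin, was at 25.2, 16.8, 41.8 and 34.4 CPM against 278, 335 and 189 CPM (log2 fold change 3.05 ± 0.35, adjusted p = 0.00976), the 1 of 40 tested actin and adhesion genes. Pvrl1, now named Nectin1, an adhesion molecule of epithelial junctions, had 1 read in open neural tube and stood at 22.9, 23.4 and 9.25 CPM in attached protrusions (adjusted p = 0.0338), the 1 of 29 tested junction genes. Each of these 3 was higher in every attached library than in any open one. Kif26b, a kinesin family gene, had 1 read in open neural tube and stood at 21.4, 9.19 and 31.7 CPM in attached protrusions (adjusted p = 0.0163). Hapln1, a link protein that ties hyaluronan to matrix, was at 52.6, 61.9, 349 and 72.7 CPM in open neural tube, with open neural tube 3 the highest, and at 9.75, 3.24 and 6.73 CPM in attached protrusions, and fell by 4.45 ± 0.87 (adjusted p = 0.0491).

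Of 38 tested extracellular matrix genes 0 passed in edgeR, with a median of −0.06, while 9 had an unadjusted p under 0.05 and 6 passed in DESeq2 and in limma-voom. Of 18 tested genes of the epithelial to mesenchymal transition 0 passed in edgeR, with a median of −0.42, against 5 at the unadjusted level, 3 in DESeq2 and 0 in limma-voom. A separate list of 43 neural tube closure genes had 40 tested members, of which 1 fell, Sfrp1, and 0 rose, with a median of 0.08. Zyx passed in 5 of 7 fits with a library left out, Robo2 and Kif26b in 3, Epha1, Efna5, Ptk7 and Pvrl1 in 2, Sema6a, Cxcr7 and Hapln1 in 1 and Epha5 in 0, with an adjusted p of up to 0.174 for Epha5. Other large falls were outside the lists. Dpp4, a membrane peptidase, was at 49.7, 66.7, 12.2 and 59.7 CPM in open neural tube and 0.143, 1.14 and 2.28 CPM in attached protrusions (log2 fold change −5.37 ± 0.92, adjusted p = 0.0345). Maob, a mitochondrial monoamine oxidase, was at 154, 135, 25.3 and 128 CPM against 5.02, 8.57 and 7.81 CPM (log2 fold change −4.05 ± 0.62, adjusted p = 0.0252). Pkdcc, a secreted kinase, was at 25.1, 59.6, 56.3 and 30.7 CPM against 1, 5.77 and 2.28 CPM (log2 fold change −3.95 ± 0.66, adjusted p = 0.0338). In all 3 the attached libraries stayed under 10 CPM. 1700011H14Rik, an uncharacterised gene, was at 82, 156, 5.22 and 76.4 CPM against 0.143, 0.437 and 2.28 CPM (log2 fold change −6.43 ± 1.28, adjusted p = 0.0499). These 4 genes passed in 0 or 1 of the 7 fits, with an adjusted p of up to 0.186.

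Growth and housekeeping lists had members that passed at shares above or below the 1.5% of all genes. Of 79 listed ribosomal protein genes 29 had no read in any of the 7 libraries and 46 were tested. Of the 46 tested, 3 rose (6.52%) and 0 fell, with a median of 0.14. Among them, Rps7 went from 996, 916, 1949 and 1579.7 CPM in open neural tube to 5801, 4231 and 4418 CPM in attached protrusions and rose by 1.73 ± 0.30 (adjusted p = 0.0352), and Rpl18 rose by 1.56 ± 0.27 (adjusted p = 0.035). Pabpc1, the poly(A)-binding protein gene, rose as well and was at 519, 506, 426 and 415 CPM against 1534, 1285 and 1502 CPM (log2 fold change 1.54 ± 0.17, adjusted p = 0.00976). The translation factor gene Eif5a was at 224, 581, 445 and 713 CPM against 2282, 1628 and 1868 CPM (log2 fold change 1.90 ± 0.35, adjusted p = 0.0392). Ribosomal genes have many processed copies in the genome, and the handling of tags shared between copies is not stated. The part of this handling in the 29 genes without reads and in the rises was not tested. Of 30 tested mitosis genes 1 rose and 2 fell (10% in all), with a median of 0.11. The kinase Cdk1, at 1464, 1581, 1704 and 1436 CPM in open neural tube and 873, 762 and 853 CPM in attached protrusions, fell by 0.99 ± 0.17 (adjusted p = 0.0338). The checkpoint gene Bub1b fell by 1.12 ± 0.16 (adjusted p = 0.0196). Ube2c, which helps destroy cyclins, went the other way, at 100.2, 134, 202 and 201 CPM against 713, 529 and 472 CPM (log2 fold change 1.75 ± 0.29, adjusted p = 0.0338).

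Glycolysis contributed 1 rise of 23 tested genes, the pyruvate kinase gene Pkm2, at 337, 539, 460.1 and 819 CPM in open neural tube and 1579, 2219 and 1262 CPM in attached protrusions (log2 fold change 1.54 ± 0.29, adjusted p = 0.0444). The antioxidant enzymes Gpx3, at 546, 496, 365 and 645 CPM against 174, 121 and 207 CPM, and Glrx, at 125, 141, 178 and 103 CPM against 42.9, 36.9 and 54.2 CPM, were the 2 falls (7.69%) among 26 tested in their list, whose median was 0.05. Gpx3 fell by 1.69 ± 0.28 and Glrx fell by 1.70 ± 0.28 on the log2 scale (adjusted p = 0.0338 for both). Among p53 targets and apoptosis genes 2 of 25 tested rose (8%) and none fell, with a median of 0.48. Cdkn1a, the cell cycle inhibitor p21, was at 2.86, 0.176, 3.06 and 3.58 CPM in open neural tube and 49.5, 51.8 and 29.8 CPM in attached protrusions (log2 fold change 4.02 ± 0.78, adjusted p = 0.0468). The pro-apoptotic gene Pmaip1 was at 2.86, 0, 3.3 and 0.119 CPM against 85, 94 and 76.6 CPM (log2 fold change 5.53 ± 1.03, adjusted p = 0.0429). Both were several times higher in each attached library than in any open one. Cdkn1a and Ccnd1 were the 2 of 15 tested genes of the Myc family and G1 cyclins that rose (13.3%), while Trp53 itself did not pass at 15.1, 53.5, 80.1 and 75 CPM against 105, 128 and 108 CPM (adjusted p = 0.368). The proteasome subunit Psma2 fell by 1.44 ± 0.21 (adjusted p = 0.0194) and the Mediator subunit Med10 by 1.33 ± 0.26 (adjusted p = 0.0464), 1 each of 35 tested. In the same list as Med10, the RNA polymerase II gene Polr2a was at 0 in the open libraries and at 14.3, 24.1 and 7.57 CPM in attached protrusions, at least 45-fold higher (adjusted p = 0.0495); this gene is needed in every cell.

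In 6 more lists 0 genes passed in edgeR. DNA replication, with 30 genes tested and a median of −0.08, had 9 at an unadjusted p under 0.05, 7 in DESeq2 and 5 in limma-voom. Oxidative phosphorylation (44 tested, median −0.01) had 11, 6 and 3 by the same order, and the hypoxia response (25, −0.11) 7, 4 and 3. One-carbon and folate metabolism (23, 0.24) had 5, 4 and 2, and the insulin, IGF and imprinted growth genes (27, −0.06) 6, 2 and 1. Pluripotency and epiblast genes (13, 1.87) had 5, 3 and 1, and 6 of these 13 had passed the filter through the attached libraries alone. Over all genes 2027 had an unadjusted p under 0.05. Pabpc1 passed in 5 of 7 fits with a library left out, Bub1b and Psma2 in 2, Rps7, Cdk1, Ube2c, Gpx3, Glrx and Cdkn1a in 1, and Rpl18, Eif5a, Pkm2, Pmaip1, Med10 and Polr2a in 0, with an adjusted p of up to 0.222 for Polr2a.

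Markers of other cell types that a dissection could carry along passed in 3 of 9 lists, with 1 gene in each: 10% of the endothelial, 10% of the notochord and 7.69% of the gut endoderm genes tested, beside 1.5% of all genes. Endothelial genes had 10 tested members, of which 1 fell, and their summed level was 91.0 to 574 CPM in open neural tubes and 50.6 to 67.9 CPM in attached protrusions. Embryonic erythroid genes summed to 93.0 to 1079 CPM and 43.6 to 129 CPM. The endothelial fall was Sox7, an endothelial and visceral endoderm factor, at 19.8, 29.6, 142 and 31.4 CPM in open neural tube and 0.43, 0.525 and 0.12 CPM in attached protrusions (log2 fold change −7.34 ± 1.03, adjusted p = 0.0177), and open neural tube 3, the highest for Sox7, was also the library with mesoderm transcripts. Their part in the falls of open neural tube was not tested. In edgeR 0 genes passed of 5 erythroid, 14 surface ectoderm, 5 visceral endoderm, 5 cardiac, 5 germ cell and 3 trophoblast genes tested. At an unadjusted p under 0.05 these lists had 2, 2, 1, 0, 2 and 0 genes, in DESeq2 1, 1, 1, 0, 0 and 0, and in limma-voom 1, 1, 0, 0, 0 and 0. The gut endoderm list had 1 rise of 13, Trh, and the notochord list 1 of 10, T. The notochord list summed to 164 to 345 CPM in open neural tubes and 586 to 1030 CPM in attached protrusions, without overlap. T, counted above with the streak, was the most abundant member of this list. The sums without T were not compared, and the part of notochord cells in this gap was not tested. The sums overlapped for gut endoderm, at 107 to 510 CPM with a median of 142 CPM against 218 to 1204 CPM with a median of 342 CPM. They also overlapped for surface ectoderm, at 94.4 to 404 CPM with a median of 116 CPM against 226 to 1148 CPM with a median of 228 CPM. The part of these cell types in the rises was not tested. Among the largest rises were also a pair of neuropeptide genes. Trh, the precursor of thyrotropin-releasing hormone, had 3 reads in open neural tube and stood at 6.45, 70.5 and 80.3 CPM in attached protrusions (adjusted p = 0.0163, ratio of pooled levels 774-fold, with a 95% interval of 264 to 3755). Gal, the galanin precursor, was at 0.0987, 0.176, 1.8 and 0 CPM against 38.9, 50.5 and 36.7 CPM (log2 fold change 6.03 ± 1.16, adjusted p = 0.0468). Slc38a8, an amino acid transporter gene, had 1 read in open neural tube and stood at 9.46, 96.5 and 18.9 CPM in attached protrusions (adjusted p = 0.0163). Fam101a, now named Rflna, was at 0 there and at 9.18, 19.1 and 14.3 CPM, at least 41.6-fold higher (adjusted p = 0.0499). With 1 library left out these 5 genes passed in 0 to 3 of 7 fits, with an adjusted p of up to 0.21.

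Leaving the separated protrusion out changed which genes passed, not only how many. With that library added to the attached ones 67 genes passed (0.607% of those tested), and 64 of them were among the 172. Of the 108 genes that passed only without it, 56 rose and 52 fell. All 22 falls of more than 8-fold were among these, as were 17 of the 36 rises of that size, and the falls found only without it had a median of −2.54 against −1.28 for those found in both. The 2 fits share 7 libraries, so this is a description of what the 1 library does. Without open neural tube 3, 18 of the 22 large falls and 23 of the 36 large rises passed.

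The genes that told the groups apart were chosen for a difference between them, which favours an in-between place for any library left out. At these genes the separated protrusion lay between the ranges of the groups more often than inside or past either range. On log2(CPM + 1), with 0 at the open mean and 1 at the attached mean, its median position was 0.319 over the 87 genes that rose and 0.523 over the 85 that fell. For the rises it was inside or past the attached range at 10 genes, between the ranges at 44 and inside or past the open range at 33, and for the falls at 18, 49 and 18. It was near the attached protrusions for Hoxb8 (55.6 CPM), Cdx1 (138 CPM) and Pmaip1 (56.4 CPM), in part for Cdx2 (105 CPM) and Tbx6 (26.5 CPM), and near open neural tube for Rarg (0.164 CPM), Nodal (1.31 CPM) and Trh (0.164 CPM). Neural plate genes that had fallen in the attached libraries were present in it, with 108 CPM of Sox1, 51 CPM of Zic1, 174 CPM of Sfrp5 and 206 CPM of Fgfr2.

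**Figure D3:**
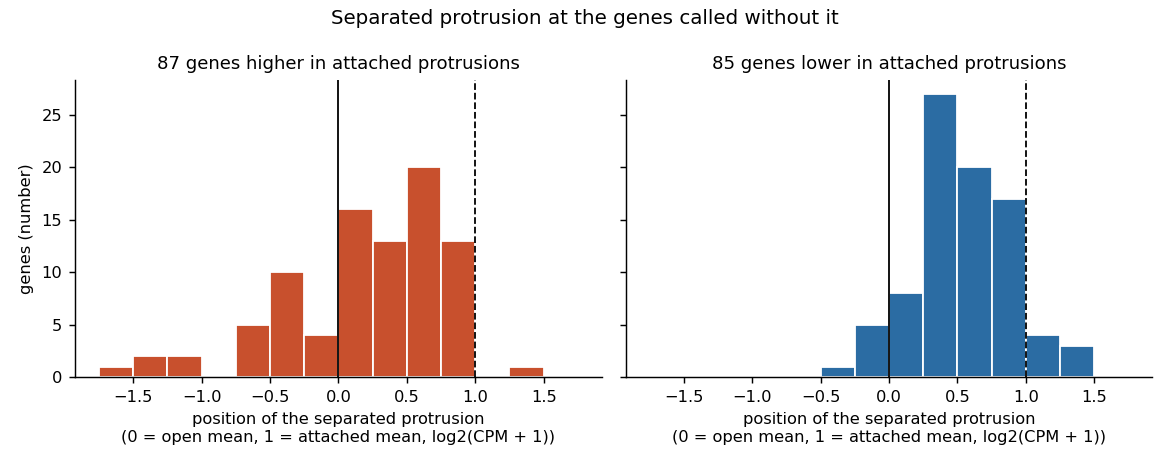
Number of genes by the position of the separated protrusion, where 0 (solid line) is the mean of the 4 open neural tubes and 1 (dashed line) the mean of the 3 attached protrusions on log2(CPM + 1), for the 87 genes higher and the 85 lower in attached protrusions. Genes higher in attached protrusions spread from −1.66 to 1.26, and genes lower in them from −0.27 to 1.38.

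Spats2, Ubfd1, Cdca7, Ptpn13, Mn1 and the splicing factor gene Sf3b3 were chosen for having passed only without the separated protrusion, so their split is a description. Ubfd1 was at 19.5, 57.5, 50.9 and 56.2 CPM in open neural tubes, 284, 334 and 242 CPM in attached protrusions and 35.8 CPM in the separated one (log2 fold change 2.55 ± 0.35, adjusted p = 0.0163). Cdca7, a chromatin gene of dividing cells, was at 104, 79.9, 97.4 and 155 CPM in open neural tubes, 403, 446 and 304 CPM in attached protrusions and 95.5 CPM in the separated one (log2 fold change 1.71 ± 0.26, adjusted p = 0.0251). Spats2 and Sf3b3 were lower still in the separated protrusion, at 7.36 and 23.4 CPM, than their open means of 15.1 ± 5.82 and 36.5 ± 4.35 CPM (SD, n = 4). Ptpn13, a tyrosine phosphatase gene, was at 112, 81.2, 82.5 and 77 CPM in open neural tube, 19.4, 28.6 and 27.9 CPM in attached protrusions and 92.8 CPM in the separated one (log2 fold change −1.91 ± 0.28, adjusted p = 0.0207). Mn1, a transcription cofactor gene, was at 92.6, 59.5, 42.9 and 119 CPM in open neural tube, 10.04, 15.7 and 11.7 CPM in attached protrusions and 101 CPM in the separated one (log2 fold change −2.76 ± 0.42, adjusted p = 0.0252). For both, the separated protrusion lay inside the range of open neural tube. With 1 library left out Ubfd1 and Cdca7 passed in 3 of 7 fits and Spats2, Sf3b3, Ptpn13 and Mn1 in 2, with an adjusted p of up to 0.114 for Sf3b3.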

How the data were processed

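The deposited files hold whole-number read counts per gene symbol for each library, as the authors made them, and are not normalized. Reads were placed on mm9, per the submitters' processing notes. How tags were mapped and assigned to genes, and whether strand was used, is unknown here (not given in the sources used). A SAGE tag does not scale with gene length. PCR copies cannot be told from separate molecules, so floors (3 reads) and intervals (95%, exact binomial on pooled reads) cover counting error only. CPM values were computed here from the deposited counts and each library's total.

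Groups came from the morphology labels. The counts went through edgeR 4.0.16 in R 4.3.3 (filterByExpr with a minimum count of 10, TMM factors, robust dispersion and quasi-likelihood F test, 2-sided, Benjamini-Hochberg adjustment over 11466 genes, threshold 0.05). The filter asked for 1.19 CPM in 3 libraries. Through the attached libraries alone 1924 tested genes passed it, and 301 through the open ones alone. This bears on the direction of those genes and on the median of every list that holds them. The F statistic gave the standard errors of log2 fold changes. The coefficient of biological variation was 0.799 and TMM factors ran from 0.947 to 1.13. DESeq2 1.42.0 and limma 3.58.1 (voom, with and without sample weights) were alternatives, beside other scaling factors and filters, each library left out, and the separated protrusion added. The procedure was tested on simulated counts. Of 13 mitochondrially encoded genes 0 were matched in the files.

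The comparison and the 56 gene lists were chosen with earlier results of these data known, and no list was given a test of its own. Named genes were the 15 largest changes in each direction past the threshold (groups apart, mean log2 CPM 4 or more), the 10 genes of smallest p in each direction that passed only without the separated protrusion, and from each list 4 or fewer called members, or the 2 of smallest p in lists without a call, with the most abundant member of the cell type and quality lists. The text gives a subset. 5730457N03Rik, Aldh1a2, Axin2, Crabp1, Cyp26a1, Eif5a, Epha5, Etv5, Fam101a, Fgf17, Fgf8, Fgfr1, Hoxc8, Il17rd, Irx2, Kif26b, Lfng, Msgn1, Pabpc1, Pax6, Rspo3, Sox2, Trp53, Twist1, Wnt3a and Zic2 were named outside this rule, after their values were seen.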

Additional observations from a re-analysis of the deposited data

Results flagged for a closer look

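In 11 of 107 values tested, 1 open neural tube library lay apart from the other 3 by Dixon's criterion for 4 values, which chance meets in about 1 of 20 groups. Open neural tube 3 was the library in 9 of them, all levels in CPM. It was high for Pax1 (246), Hand1 (69.6), Sox7 (142), Hapln1 (349) and Mest (10400, against 1657 to 2979 in the others), and also for Rspo3 (15.6), 2700086A05Rik (4.86) and Gal (1.80), and it was low for Nkd1 (29.1, against 48.0 to 50.4). Open neural tube 4 was high for Il17rd at 112 CPM, against 1.59 to 10.4 CPM in the others. Open neural tube 1 was high for Ptpn13 at 112 CPM, against 77.0 to 82.5 CPM.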

How the results depend on the processing

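The counts of 87 genes higher and 85 lower moved with the test and the filter. They were 584 and 527 with DESeq2, 639 and 230 with limma-voom and 706 and 306 with its sample weights, and 87 and 84, 85 and 64, and 78 and 83 of the genes named by edgeR were among these. They were 180 and 245 with a filter of at least 20 CPM in 3 libraries, 166 and 152 among genes with a mean of at least 100 CPM, and 31 and 36 with the separated protrusion added. Upper-quartile factors gave 96 and 130, no scaling 128 and 83, and no filter 113 and 89. Leaving out each library in turn gave 8 to 115 higher and 1 to 96 lower. The share of genes at which the separated protrusion lay at least as near to open neural tube was 60.9% of the rises and 48.2% of the falls. It was 47.0% and 36.8% among genes with a mean of at least 100 CPM, and 31.6% to 60% and 0% to 100% with each library left out, over as few as 1 gene. The excess of 4327.17 genes detected in attached protrusions was 3079.08 with a minimum of 3 reads and 4625.58 without thinning. Among genes that had not passed, the log2 fold change of Sox2 reversed to 0.29 with limma-voom, 0.066 with sample weights and 0.063 with the separated protrusion added, and ran from −0.73 to 0.12 with each library left out. The log2 fold change of Hand1 was 1.23 and 1.72 with the voom fits. The cause of these shifts was not tested. No paired analysis was possible because the labels give the groups no shared replicate numbers.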
